A study of Mus musculus with 42 samples.

Results

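Activity-regulated immediate early genes are the first genes a cell transcribes after a stimulus. The 10 described here were Fos, Fosb, Junb, Egr1, Egr2, Ier2, Nr4a1, Arc, Npas4 and Bdnf, which are 10 of the 52636 gene lines in each count file. They were chosen by name as known members of the class and all 10 passed the filter on low counts that left 17173 genes for testing. The values are counts scaled to library size as CPM in 9 RNA sequencing libraries of cultures from embryonic day 16 mouse forebrain, 3 for each of 3 genotypes, joined to peak lists of SMARCA2/4 ChIP-seq and of open chromatin (ATAC-seq) from adult male hippocampus.

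Immediate early genes need no new protein synthesis for their induction: calcium entry and growth factor signals reach transcription factors already sitting at their promoters, among them CREB at cAMP response elements, the serum response factor at CArG boxes and MEF2 proteins. Fos, Junb, Egr1 and Ier2 respond to serum, growth factors and injury in nearly every cell type. Npas4 is induced by calcium entry and is largely restricted to neurons, and Arc and the neurotrophin gene Bdnf are read in brain tissue mainly as reports of neuronal firing. The chromatin remodeling complex BAF, whose ATPase subunits are SMARCA2 and SMARCA4, takes part in opening such promoters, and BRWD1 is a chromatin reader encoded in the segment that is present in 3 copies in Ts65Dn mice.

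The 3 culture genotypes were euploid, Ts65Dn (the partial trisomy model of Down syndrome, which carries an extra copy of a segment orthologous to human chromosome 21) and Ts65Dn;Brwd1+/-, in which 1 Brwd1 allele of the trisomic mouse is a mutant allele. Per the study's methods, the cells were plated in serum, moved the next day to serum-free medium with AraC, an inhibitor of dividing cells that was added against glia, and given partial changes of medium until harvest. No depolarizing stimulus is described. Medium was changed every 4 days and harvest came at a fixed age in culture, but the time from the last change to harvest is not stated in the sources used here. The mice were of a mixed background, and embryonic cortex, from which the cells were dissociated, also holds glial, meningeal and vascular cells. All groups carry the same mixed background, and the study's methods say that cortices were dissociated 1 embryo at a time and that animals in molecular assays counted as separate samples. The labels, however, give the sexes as pooled and tie no library to an embryo. Hence p-values measure the spread between these libraries, which may in part be technical. The hippocampal samples came from male mice, aged 6 to 8 weeks for the ChIP-seq, with 4 immunoprecipitates and 4 inputs for each genotype, each made from hippocampi of pooled animals, and 3 ATAC-seq samples of sorted NeuN+ neuronal nuclei for each genotype. The deposited peaks form 1 list per genotype and assay, so they carry no replicate error.

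Depth ranged from 17270070 to 25892802 counts in genes per library. Brwd1 measured 93.2, 85.9 and 89.2 CPM in the euploid libraries, 129, 126 and 125 CPM in the Ts65Dn libraries, and 145, 146 and 124 CPM in the libraries labelled Ts65Dn;Brwd1+/-. The latter were not called different from Ts65Dn (log2 fold change 0.13, SE 0.08, adjusted p = 0.186). By qPCR in embryonic forebrain, the study reports that this cross corrected the raised Brwd1 expression of Ts65Dn, which these culture libraries do not show. Whether the mutant allele is transcribed in them was not tested. Xist, transcribed from the inactive X chromosome of females, measured 1947, 1982 and 1409 CPM in the libraries labelled Ts65Dn;Brwd1+/- and 0.526 to 1.12 CPM in the other libraries, although the labels give every culture as male and female pooled. Sex and this genotype label therefore cannot be told apart in any comparison that involves these 3 libraries. Summed CPM over 12 neuron markers was 4690 to 5783 in euploid, 1181 to 3135 in Ts65Dn and 4617 to 5980 in the libraries labelled Ts65Dn;Brwd1+/-. Ts65Dn replicate 3 had the lowest of these sums. Values without it are given below for Npas4, Bdnf and Ier2, for the gap between sets of members and for the counts over lists. In such bulk samples, fewer cells of a type and less RNA per cell cannot be told apart.

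RefSeq windows of build GRCm38.p6 ran from 250 bases before to 50 bases after an annotated start. Chosen by symbol, 17 windows of 7 of the 10 genes were used. The set held no window of Arc, Ier2 or Egr1, so the counts of elements below leave these genes out. Whether their promoters hold such elements was not tested. The 5 windows below, 1 per gene, are shown because an ATAC-seq peak of every genotype covered most of each and because they hold elements at which stimulus-responsive factors are known to bind. The Fosb window also holds such elements, but peaks covered 49, 58 and 56 of its 300 bases in euploid, Ts65Dn and Ts65Dn;Brwd1+/-, and it is not printed. Capitals mark the cAMP response element in its short form (TGACG, on either strand), the CArG box, the EGR site (GCGNGGGCG) and the TATA box (TATAAA).
Fos: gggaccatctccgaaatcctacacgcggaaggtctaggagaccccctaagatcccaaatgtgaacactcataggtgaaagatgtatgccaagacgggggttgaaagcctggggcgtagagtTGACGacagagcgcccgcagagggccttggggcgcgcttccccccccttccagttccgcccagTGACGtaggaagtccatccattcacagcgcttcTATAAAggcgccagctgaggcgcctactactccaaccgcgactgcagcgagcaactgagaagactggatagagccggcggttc
Junb: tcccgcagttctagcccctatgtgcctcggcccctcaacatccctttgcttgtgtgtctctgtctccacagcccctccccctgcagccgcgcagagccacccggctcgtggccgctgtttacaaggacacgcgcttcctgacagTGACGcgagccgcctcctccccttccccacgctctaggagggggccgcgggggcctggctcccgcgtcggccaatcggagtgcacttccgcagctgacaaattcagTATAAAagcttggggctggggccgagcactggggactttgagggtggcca
Egr2: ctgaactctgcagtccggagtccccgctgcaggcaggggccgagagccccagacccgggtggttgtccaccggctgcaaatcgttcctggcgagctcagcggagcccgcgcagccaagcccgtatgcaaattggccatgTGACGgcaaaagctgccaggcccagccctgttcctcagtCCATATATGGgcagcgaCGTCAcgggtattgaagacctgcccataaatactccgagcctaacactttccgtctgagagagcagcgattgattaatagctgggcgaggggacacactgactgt
Nr4a1: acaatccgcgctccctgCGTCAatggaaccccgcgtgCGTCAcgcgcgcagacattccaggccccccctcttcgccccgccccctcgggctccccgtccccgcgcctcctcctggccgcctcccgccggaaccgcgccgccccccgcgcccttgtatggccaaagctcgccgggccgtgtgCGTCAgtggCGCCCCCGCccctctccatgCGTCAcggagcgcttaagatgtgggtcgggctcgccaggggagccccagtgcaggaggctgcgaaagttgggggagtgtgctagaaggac
Npas4: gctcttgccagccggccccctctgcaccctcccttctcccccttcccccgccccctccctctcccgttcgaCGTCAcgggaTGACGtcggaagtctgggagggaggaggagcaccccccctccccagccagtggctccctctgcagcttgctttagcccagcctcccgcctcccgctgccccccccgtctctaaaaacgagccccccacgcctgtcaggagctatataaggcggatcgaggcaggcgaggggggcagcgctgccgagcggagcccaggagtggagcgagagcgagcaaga

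The Fos window lies at chr12:85473640-85473939 on the + strand, the Junb window at chr8:84978699-84978998 on the - strand, the Egr2 window at chr10:67537619-67537918 on the + strand, the Nr4a1 window at chr15:101266596-101266895 on the + strand, and the Npas4 window at chr19:4989922-4990221 on the - strand. The Fos window held short cAMP response elements that began 129 and 66 bases before the annotated start, and a TATA box 33 bases before it. Junb held 1 short element 106 bases before the start, and its TATA box letters began at the annotated start itself, not upstream of it. Npas4 held a pair that began 179 and 169 bases before it. Egr2 held a CArG box 72 bases before the start between short elements at 111 and 55 bases. Nr4a1 was the window with the most, with 4 short elements at 233, 213, 69 and 40 bases and an EGR site at 60 bases.

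The short cAMP response element was in 9 of the 17 windows, beside 20.8% of the 32851 RefSeq windows of the same length. Of the 9, 3 were overlapping windows of Egr2 that share the same elements. Each of the 7 genes had it in at least 1 window. That count per gene has no background share beside it, and genes such as Bdnf and Egr2 have several windows. The CArG box was in 4 windows, all of Egr2, 3 of which overlap and share 1 box, beside 1.63% of all windows. The full palindromic cAMP response element (TGACGTCA, which contains the short form) and the MEF2 site were in none of the 17 windows, beside 1.79% and 3.19% of all windows. The AP-1 site (TGANTCA) was in 1 window, of Bdnf, beside 7.81%, the EGR site in 2, of Fosb and Nr4a1, beside 5.55%, and the TATA box in 2, of Fos and Junb, beside 13.6%. The 17 windows had a median GC content of 58.0%, against 52.7% over all windows, and its part in these shares was not tested. The letters describe these windows only and say nothing of sites elsewhere.

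Per kilobase of merged exons, the members differed widely in level. In euploid cultures Junb was the most abundant at 9.09 CPM per kb (SD 1.499, n = 3), followed by Egr1 (6.52 CPM per kb), Ier2 (5.74) and Fos (4.83). Nr4a1 (3.55 CPM per kb) and Bdnf (3.29) came next, then Npas4 (1.51), Arc (1.14), Egr2 (0.513) and Fosb (0.320). Egr1 and Ier2, Ier2 and Fos, and Nr4a1 and Bdnf overlapped across their libraries and so have no settled order, whereas the other neighbours did not overlap. In Ts65Dn the first place passed to Egr1, at 22.01 CPM per kb (SD 4.06, n = 3) and with no overlap with Junb at 14.7. In the libraries labelled Ts65Dn;Brwd1+/- Egr1 again stood first at 14.2 CPM per kb, and Fosb was last in each genotype.

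**Figure D1:**
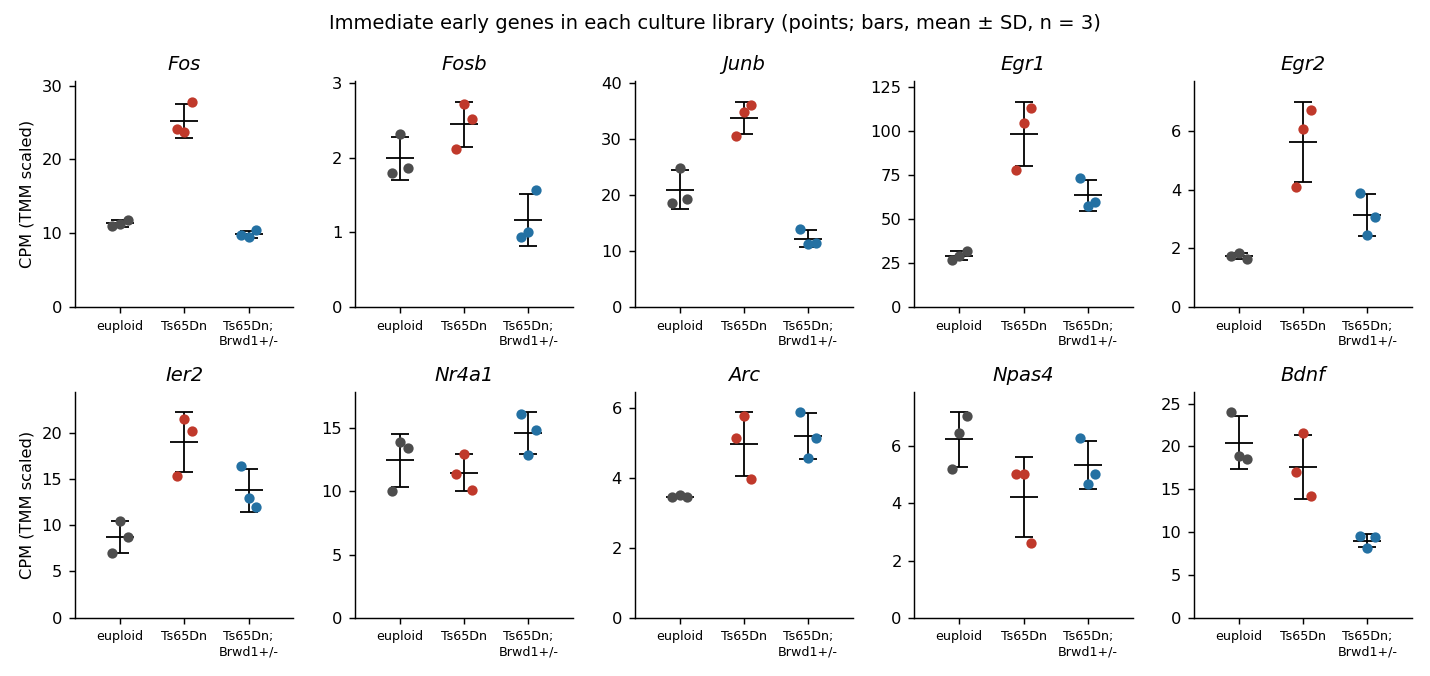
Each panel plots 1 gene, with TMM-scaled CPM on the vertical axis from 0 and the 3 genotypes on the horizontal axis; points are libraries and bars the mean ± SD (n = 3). Fos, Junb, Egr1, Egr2 and Ier2 peak in Ts65Dn, Bdnf and Fosb are lowest in the libraries labelled Ts65Dn;Brwd1+/-, and the Npas4 value of Ts65Dn replicate 3 (2.60 CPM) stands below all others.

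Comparing Ts65Dn with euploid asks what goes with the extra segment. Of the 10 members, 6 were higher in Ts65Dn (Fos, Junb, Egr1, Egr2, Ier2 and Arc), where 25.6% of all 17173 tested genes were called higher by edgeR's quasi-likelihood test with Benjamini-Hochberg adjustment. By edgeR 0 were called lower, where 21.1% of all tested genes were. At an unadjusted p under 0.05, 1 member was lower, Npas4, which was also the 1 member that DESeq2 called lower. The median log2 fold change of the members was 0.60 beside 0.04 over all tested genes.

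Comparing the libraries labelled Ts65Dn;Brwd1+/- with Ts65Dn asks what goes with the mutant Brwd1 allele on the trisomic background. Here 7 members were lower (Fos, Fosb, Junb, Egr1, Egr2, Ier2 and Bdnf), where 30.5% of all tested genes were called lower. By edgeR 0 were called higher, where 27.6% of all tested genes were. DESeq2 called 0 higher, and at an unadjusted p under 0.05 there was 1, Nr4a1. The median log2 fold change was -0.73 beside 0.00 over all tested genes.

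Against euploid, 7 members were called in the libraries labelled Ts65Dn;Brwd1+/-, where 29.2% of all tested genes were. Of these, 4 were higher (Egr1, Egr2, Ier2 and Arc) and 3 lower (Fosb, Junb and Bdnf), where 2400 of all tested genes were higher and 2608 lower. These 7 calls fell to 3 (Egr1, Junb and Bdnf) without euploid replicate 1, without euploid replicate 3 or without Ts65Dn;Brwd1+/- replicate 1. The 3 comparisons share libraries, so their values are given side by side and not as independent results. Across the 3 genotypes together, 8 of the 10 members were called, all but Nr4a1 and Npas4, where 63.8% of all tested genes were.

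**Figure D2:**
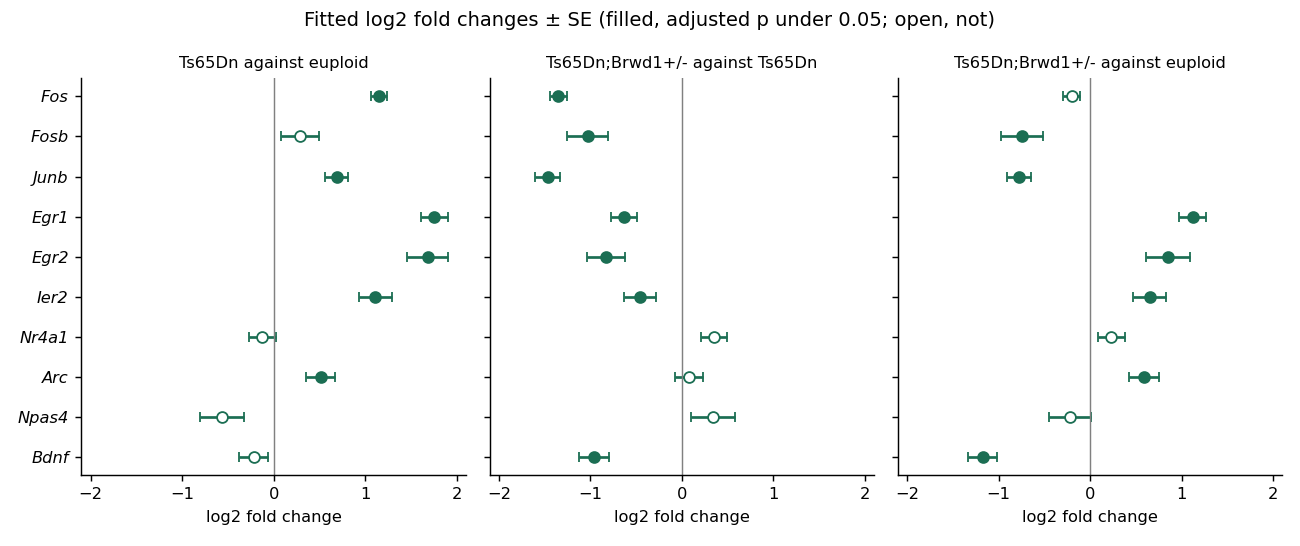
Each panel plots 1 comparison, with the fitted log2 fold change on the horizontal axis and the 10 genes on the vertical axis; points are edgeR estimates, bars 1 SE, and filled points have an adjusted p under 0.05. Fos, Junb, Egr1, Egr2 and Ier2 are filled on the right in the first panel and on the left in the second, whereas in the third Egr1, Egr2, Ier2 and Arc lie above 0 and Fosb, Junb and Bdnf below it.

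Fos, Fosb and Junb encode subunits of AP-1, the dimeric transcription factor of which FOS proteins are obligate partners of JUN proteins. Fos measured 10.9, 11.3 and 11.8 CPM in euploid, 24.1, 23.7 and 27.9 CPM in Ts65Dn, and 9.72, 9.52 and 10.4 CPM in the libraries labelled Ts65Dn;Brwd1+/-. The Ts65Dn libraries stood apart from all others by more than 10 CPM, and the 3 libraries within each genotype lay close together. Fos was 2.22-fold higher in Ts65Dn than in euploid (log2 fold change 1.15, SE 0.09, adjusted p = 1.27e-05) and 2.55-fold lower in the libraries labelled Ts65Dn;Brwd1+/- than in Ts65Dn (log2 fold change -1.35, SE 0.09, adjusted p = 2.18e-06). Against euploid the latter were not called (log2 fold change -0.20, SE 0.09, adjusted p = 0.138), although all 3 lay below the 3 euploid libraries.

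Junb, whose product damps AP-1 activity at many targets, measured 18.6, 24.9 and 19.3 CPM in euploid, 30.4, 34.8 and 36.0 CPM in Ts65Dn, and 13.9, 11.2 and 11.4 CPM in the libraries labelled Ts65Dn;Brwd1+/-. The 3 genotypes did not overlap. Junb was 1.61-fold higher in Ts65Dn than in euploid (adjusted p = 0.00212), 2.77-fold lower in the libraries labelled Ts65Dn;Brwd1+/- than in Ts65Dn (adjusted p = 1.21e-05) and 1.72-fold lower in them than in euploid (adjusted p = 0.00187). Of the Junb exon bases, 173 are shared with Prdx2 on the opposite strand, and the library kit does not mark strand, so reads there cannot be told apart.

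Fosb, a FOS relative whose truncated form accumulates with repeated stimulation, was the least abundant member per kilobase of exon. In CPM it measured 1.80, 2.33 and 1.87 CPM in euploid, 2.12, 2.72 and 2.52 CPM in Ts65Dn, and 0.937, 1.00 and 1.57 CPM in the libraries labelled Ts65Dn;Brwd1+/-, from 18 to 57 counts per library. Euploid and Ts65Dn overlapped and were not told apart by the test (log2 fold change 0.29, SE 0.21, adjusted p = 0.285). The libraries labelled Ts65Dn;Brwd1+/- lay below both, 2.04-fold below Ts65Dn (adjusted p = 0.00288) and 1.67-fold below euploid (adjusted p = 0.0347). The call against euploid was lost in 5 of the 17 alternatives, on leaving out any single euploid library or Ts65Dn;Brwd1+/- replicate 1 or 2.

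Egr1 and Egr2 encode zinc finger transcription factors that bind GC-rich EGR sites, Egr1 being a classic reporter of ERK signaling and Egr2 also known for its part in Schwann cell myelination. Egr1 measured 26.6, 29.2 and 31.9 CPM in euploid, 78.2, 104.8 and 113 CPM in Ts65Dn, and 73.6, 57.3 and 59.7 CPM in the libraries labelled Ts65Dn;Brwd1+/-. The euploid libraries lay far below all others, and the other genotypes came close to each other at 78.2 and 73.6 CPM without overlapping. Egr1 had the largest fitted change of the members, 3.37-fold higher in Ts65Dn than in euploid (log2 fold change 1.75, SE 0.15, adjusted p = 2.13e-05). It was 1.55-fold lower in the libraries labelled Ts65Dn;Brwd1+/- than in Ts65Dn (adjusted p = 0.0036) and was still 2.17-fold above euploid there (log2 fold change 1.12, SE 0.15, adjusted p = 0.000415).

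Egr2 had the same order at a much lower level. It measured 1.75, 1.84 and 1.64 CPM in euploid, 4.08, 6.08 and 6.71 CPM in Ts65Dn, and 3.88, 2.45 and 3.06 CPM in the libraries labelled Ts65Dn;Brwd1+/-, again with no overlap between genotypes. The change between Ts65Dn and euploid was 3.21-fold (log2 fold change 1.68, SE 0.23, adjusted p = 0.000383). The libraries labelled Ts65Dn;Brwd1+/- were 1.78-fold below Ts65Dn (adjusted p = 0.00697) and 1.81-fold above euploid (adjusted p = 0.0239). The latter call was lost in 5 of the 17 alternatives, on leaving out any single euploid library or Ts65Dn;Brwd1+/- replicate 1 or 3.

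Ier2, a nuclear protein gene induced by serum and growth factors, measured 7.04, 10.5 and 8.70 CPM in euploid, 15.3, 21.4 and 20.1 CPM in Ts65Dn, and 16.4, 12.97 and 11.9 CPM in the libraries labelled Ts65Dn;Brwd1+/-. The euploid libraries lay below all others, whereas the other genotypes overlapped. Ier2 was 2.16-fold higher in Ts65Dn than in euploid (adjusted p = 0.00101). Its 1.38-fold lower level in the libraries labelled Ts65Dn;Brwd1+/- than in Ts65Dn passed narrowly (adjusted p = 0.0441, between 0.0137 and 0.155 over the 17 alternatives to the fit), and it was no longer called in 7 of them. These were the fits without Ts65Dn replicate 2 or 3, without Ts65Dn;Brwd1+/- replicate 2 or 3, without euploid replicate 3, with at least 10 counts in every library, and with the replicate number as a block. Leaving out Ts65Dn replicate 3 moved its log2 fold change from -0.46 to -0.41 (edgeR adjusted p = 0.0755).

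Nr4a1 encodes an orphan nuclear receptor induced by cAMP, calcium and many growth factors. It measured 10.1, 13.9 and 13.4 CPM in euploid, 11.4, 12.99 and 10.1 CPM in Ts65Dn, and 16.1, 12.9 and 14.8 CPM in the libraries labelled Ts65Dn;Brwd1+/-, with all genotypes overlapping. None of the 3 comparisons was called, the log2 fold changes being -0.12 (SE 0.15, adjusted p = 0.529), 0.35 (SE 0.15, adjusted p = 0.0601) and 0.23 (SE 0.14, adjusted p = 0.272) in the order given above. The comparison of the libraries labelled Ts65Dn;Brwd1+/- with Ts65Dn was called higher in 7 of the 17 alternatives.

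Arc, Npas4 and Bdnf were set beside these as the neuron-selective members. Arc, whose product forms capsid-like particles and removes AMPA receptors from synapses, measured 3.45, 3.51 and 3.46 CPM in euploid, 5.14, 5.78 and 3.97 CPM in Ts65Dn, and 5.89, 4.57 and 5.15 CPM in the libraries labelled Ts65Dn;Brwd1+/-. All trisomic libraries lay above all euploid libraries, and the trisomic genotypes overlapped. Arc was 1.43-fold higher in Ts65Dn (log2 fold change 0.51, SE 0.16, adjusted p = 0.0246) and 1.502-fold higher in the libraries labelled Ts65Dn;Brwd1+/- (log2 fold change 0.59, SE 0.16, adjusted p = 0.0201) than in euploid. Between the latter and Ts65Dn the log2 fold change was 0.07 (SE 0.15, adjusted p = 0.702). Arc held 71 to 138 counts per library over the 3 genotypes. The call between Ts65Dn and euploid was lost on leaving out any single library of euploid, or Ts65Dn replicate 1 or 2. The call between Ts65Dn;Brwd1+/- and euploid was lost without euploid replicate 1 or 3, or Ts65Dn;Brwd1+/- replicate 1 or 3.

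Npas4, a transcription factor of inhibitory synapse formation that needs ARNT proteins as partners, measured 5.19, 6.45 and 7.06 CPM in euploid, 5.02, 5.04 and 2.60 CPM in Ts65Dn, and 6.29, 4.68 and 5.04 CPM in the libraries labelled Ts65Dn;Brwd1+/-. The Ts65Dn libraries lay below the euploid ones, replicates 1 and 2 narrowly, and replicate 3, which also had the lowest neuron marker sum, held 59 counts. The difference was not called (log2 fold change -0.56, SE 0.24, adjusted p = 0.0738), and without Ts65Dn replicate 3 it was -0.31 (adjusted p = 0.18). It was called in 3 of the 17 alternatives. The other comparisons gave log2 fold changes of 0.34 (SE 0.24, adjusted p = 0.244) and -0.22 (SE 0.23, adjusted p = 0.519). Without Ts65Dn replicate 3 the former, between Ts65Dn;Brwd1+/- and Ts65Dn, was 0.0869.

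Bdnf, which encodes the neurotrophin that acts through TrkB and is read from 9 annotated start sites, measured 23.98, 18.8 and 18.5 CPM in euploid, 16.98, 21.5 and 14.2 CPM in Ts65Dn, and 9.50, 8.13 and 9.41 CPM in the libraries labelled Ts65Dn;Brwd1+/-. The last group lay below every other library, and the others overlapped. Bdnf was not called between Ts65Dn and euploid (log2 fold change -0.22, SE 0.15, adjusted p = 0.273), and without Ts65Dn replicate 3 the change was -0.0871. It was 1.94-fold lower in the libraries labelled Ts65Dn;Brwd1+/- than in Ts65Dn (log2 fold change -0.96, SE 0.16, adjusted p = 0.00065) and 2.26-fold lower than in euploid (log2 fold change -1.18, SE 0.16, adjusted p = 0.000534), and both calls held in all 17 alternatives. Of its exon bases, 896 are shared with Gm45346 on the opposite strand.

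The members induced in all cells and the neuron-selective ones were compared as mean log2 CPM in each library, as a description with no test. The mean over Fos, Egr1, Ier2 and Junb was 3.81, 4.11 and 4.00 in euploid, 4.94, 5.21 and 5.28 in Ts65Dn, and 4.34, 4.08 and 4.10 in the libraries labelled Ts65Dn;Brwd1+/-. The mean over Npas4, Bdnf and Arc was 2.94, 2.93 and 2.96, then 2.95, 3.12 and 2.43, then 2.84, 2.504 and 2.67. The first set was therefore higher in every Ts65Dn library than in any other, while the second overlapped. Their difference averaged 1.03 in euploid (SD 0.15, n = 3), 2.31 in Ts65Dn (SD 0.47) and 1.502 in the libraries labelled Ts65Dn;Brwd1+/- (SD 0.07), so the gap between the sets was wider by 1.29 log2 units in Ts65Dn than in euploid, and by 1.02 without Ts65Dn replicate 3. All 4 genes of the first set were called higher in Ts65Dn than in euploid and 1 of 3 of the second, Arc, whose call was lost in 5 of the 17 alternatives, where 25.6% of all tested genes were called higher.

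**Figure D3:**
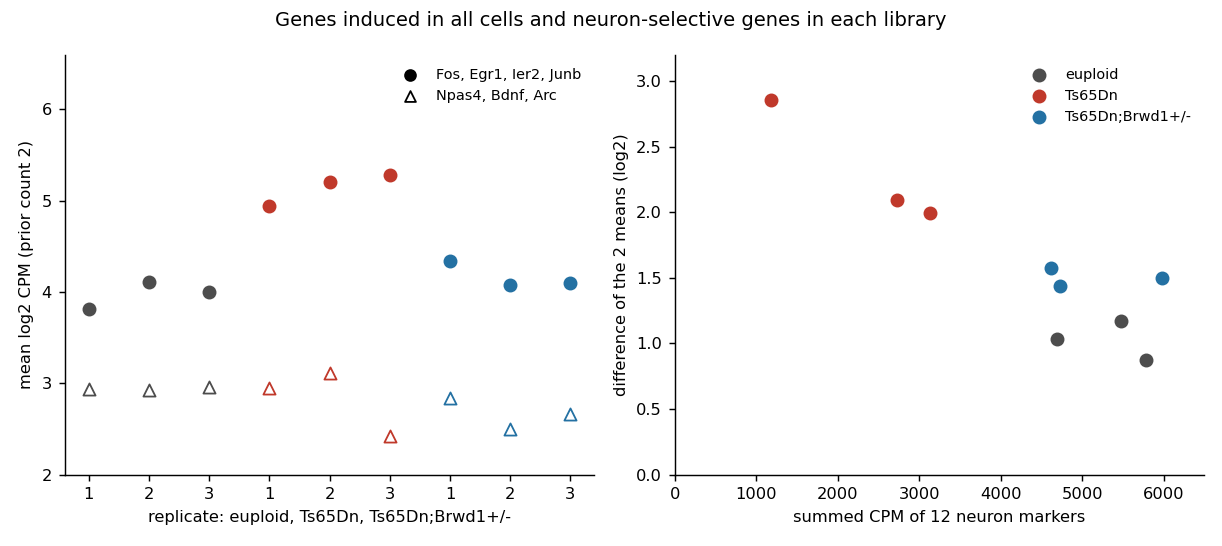
The left panel plots the mean log2 CPM of the 4 genes induced in all cells (filled circles) and of the 3 neuron-selective genes (open triangles) in each of the 9 libraries, in the order euploid, Ts65Dn, Ts65Dn;Brwd1+/-; the right panel plots their difference against the summed CPM of 12 neuron markers, with colors for genotype. The circles lie highest in Ts65Dn, and the 3 Ts65Dn libraries, with sums of 1181 to 3135, have the widest differences, 1.99 to 2.85.

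Over the 9 libraries the levels of some members followed each other, given as a description, since the libraries fall into 3 genotypes. Egr1 correlated with Egr2 (Pearson r = 0.97) and with Ier2 (r = 0.96), Fos with Junb (r = 0.89), and Fosb with Junb (r = 0.87) and Bdnf (r = 0.77). Egr1 and Fosb gave r = 0.10. Among the other tested genes with a mean of at least 1 CPM, those most like Fos were Tmem176b (r = 0.998), Atp13a4, Tmem132c, Rrbp1 and En2 (r = 0.99 or more each), and 1714 of 14864 genes exceeded 0.9. For Npas4 they were Proz (r = 0.96), Aldh3b2, Ngef, Hars and Dctn5 (r = 0.94), with 128 genes over 0.9. For Bdnf they were Prkca (r = 0.97), Tm9sf4, Frmd3, Myo5b and Nrn1 (r = 0.95), with 97 over 0.9.

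Markers of other cell types moved with genotype too. Relative to euploid, 10 of 12 neuron markers were lower in Ts65Dn (median log2 fold change -1.21), and all 12 markers of GABAergic interneurons were (median -1.64). The summed CPM of 12 meningeal and fibroblast markers was 719 to 757 in euploid, 1473 to 2197 in Ts65Dn and 397 to 507 in the libraries labelled Ts65Dn;Brwd1+/-, with 8 of the 12 called higher and 4 lower in Ts65Dn. Those called higher included the collagen gene Col1a1, at 18.9 to 27.9 and 90.6 to 145.7 CPM in euploid and Ts65Dn. Those called lower were Col3a1, Col6a3, Lum and the fibroblast proteoglycan gene Dcn, at a mean of 12.2 and 1.28 CPM. Radial glia and progenitor markers summed to 4594 to 5292, 7164 to 9172 and 3774 to 4243 CPM in the same order, and astrocyte markers to 4149 to 5038, 4792 to 5580 and 4732 to 5328 CPM. Of the 12 astrocyte markers, 6 were higher in Ts65Dn than in euploid, led by the water channel gene Aqp4 (log2 fold change 1.43), and 2 lower, the glutamate transporter genes Slc1a2 (-0.98) and Slc1a3 (-0.62). Of the 12 progenitor markers, 7 were called higher and 4 lower in Ts65Dn than in euploid, Hes5 with a log2 fold change of -1.81. The most abundant progenitor marker was Vim, an intermediate filament gene also expressed in fibroblasts and astrocytes, at 2392 to 2920, 4961 to 6624 and 1290 to 1695 CPM. The Ts65Dn libraries with the highest Fos, Junb, Egr1 and Egr2 were thus also those with the highest fibroblast sums and the highest Vim. The progenitor sum was highest there too, but it followed Vim. Ptprz1, the second most abundant progenitor marker, had means of 960, 752 and 1051 CPM in the same order.

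Oligodendrocyte lineage markers moved with the third group. Their sum was 126 to 147 CPM in euploid, 144 to 173 in Ts65Dn and 290 to 339 in the libraries labelled Ts65Dn;Brwd1+/-, and of 10 tested, 8 were higher and 2 lower in the last group than in Ts65Dn. The progenitor receptor gene Pdgfra was at a mean of 14.7 CPM in Ts65Dn and 128 CPM in the last group (log2 fold change 3.12, SE 0.16). The libraries with the lowest Bdnf and Fosb were thus also those with the highest sum of these markers.

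Vascular and microglial lists were sparser. Endothelial and pericyte markers summed to 137 to 159 CPM in euploid, 730 to 962 in Ts65Dn and 136 to 186 in the libraries labelled Ts65Dn;Brwd1+/-, but the defining endothelial marker Cldn5 had no counts in any library and 8 of the 12 were under 1 CPM throughout euploid and Ts65Dn, so that the sum followed Kdr (78.9 to 87.6 and 651 to 858 CPM). Microglial markers summed to 8.83 to 17.7, 5.29 to 8.98 and 1.34 to 2.14 CPM. The part of these differences in cell content in the values of the immediate early genes was not tested.

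The members were also set against the summed neuron markers, in a ratio chosen after the values were seen and given with no test. The marker sum itself was lowest in Ts65Dn, which raises the ratio there for any gene. Each of the 10 members had a higher ratio in all 3 Ts65Dn libraries than in any euploid library. The share of all tested genes that separate likewise was not computed, so the count says nothing particular to the members. Npas4 was 0.898, 1.18 and 1.51 CPM per 1000 CPM of neuron markers in euploid, 1.60, 1.85 and 2.20 in Ts65Dn, and 1.05, 1.01 and 1.07 in the libraries labelled Ts65Dn;Brwd1+/-. The Npas4 ratios in Ts65Dn lay above the euploid ones, although the CPM lay below. Arc gave 0.596, 0.641 and 0.738, then 1.64, 2.12 and 3.36, then 0.984, 0.989 and 1.09. Bdnf gave 4.15, 3.44 and 3.95, then 5.42, 7.89 and 12.03, then 1.59, 1.76 and 1.99, and stayed lowest in the last group.

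Genes around the members in the same pathways were counted from lists. Beside each count below stand the shares of all tested genes given above, 25.6% higher and 21.1% lower in Ts65Dn than in euploid, 27.6% higher and 30.5% lower in Ts65Dn;Brwd1+/- than in Ts65Dn, and 29.2% in either direction in Ts65Dn;Brwd1+/- against euploid. Of 17 other early transcription factors tested, 7 were higher and 2 lower in Ts65Dn than in euploid (median log2 fold change 0.03 beside 0.04 over all tested genes). The stress factor Atf3 (log2 fold change 1.18, SE 0.22) and the small MAF gene Maff (1.17, SE 0.14) had the largest rises, and Nr4a2, a relative of Nr4a1 (-0.82, SE 0.12), and Egr3, a relative of Egr1 (-0.70, SE 0.24), fell. In the libraries labelled Ts65Dn;Brwd1+/- relative to Ts65Dn, 9 were lower and 2 higher, with Atf3 (-2.63, SE 0.25) and Klf4 (-1.77, SE 0.13) lowest and Nr4a2 (1.13, SE 0.12) and Nfil3 (0.35, SE 0.10) higher. Jund held 0 to 3 counts per library and was not tested. Against euploid, 4 were lower, led by Atf3 (-1.45) and Klf2 (-1.42), and 1 higher, Nfil3 (0.30).

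Of 18 other early response genes, 10 were higher and 3 lower in Ts65Dn than in euploid (median 0.32). Ptgs2, the inducible cyclooxygenase (1.51, SE 0.32), and Zfp36, which destabilizes AU-rich mRNAs (1.47, SE 0.16), led the rises, and Plk2 (-0.53) and Sgk1 (-0.45) the falls. Relative to Ts65Dn, in the libraries labelled Ts65Dn;Brwd1+/- 12 were lower, led by Zfp36 (-2.32, SE 0.17) and Ptgs2 (-2.29, SE 0.35), and 3 higher, led by Sik1 (0.56) and Plk2 (0.54). Against euploid, 8 were lower, led by Gem (-1.47, SE 0.18) and Ccn2 (-1.28, SE 0.17), and Pim1 was higher (0.37).

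The ERK feedback inhibitors, phosphatases and adaptor proteins that ERK signaling itself induces, were called in both directions. Of 12, 5 were higher in Ts65Dn than in euploid, led by Spry1 (1.15, SE 0.10) and Dusp5 (1.08, SE 0.15), and 2 lower, Dusp2 (-1.30, SE 0.31) and Dusp4 (-0.87, SE 0.25), beside 25.6% and 21.1% of all tested genes. In the libraries labelled Ts65Dn;Brwd1+/- relative to Ts65Dn, Dusp14 (-1.04) and Spry1 (-0.91) led 5 that were lower, and Dusp4 (1.66) and Dusp2 (1.56) led 3 that were higher. Against euploid, Dusp4 (0.79) and Spry2 (0.33) were higher and Dusp14 (-0.62) lower. The medians were 0.03, -0.04 and 0.21 in the same order.

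Of 17 neuronal activity effectors tested, 8 were lower in Ts65Dn than in euploid, led by Nrgn, a calmodulin-binding protein gene (-1.75, SE 0.39), and the protocadherin gene Pcdh8 (-1.59, SE 0.23), and only Rgs2 was higher (0.61, SE 0.11; median -0.62). Relative to Ts65Dn, in the libraries labelled Ts65Dn;Brwd1+/- 8 were higher, led by Sorcs3 (1.88, SE 0.36) and Nrgn (1.56, SE 0.39), and 2 lower, Rgs2 (-0.82) and Nrn1 (-0.33; median 0.47). Against euploid, Nptx2 was higher (1.11, SE 0.27) and Nrn1 lower (-0.55, SE 0.09), and the other 15 were not called.

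Upstream of the members, 12 of 16 channels, receptors and kinases were lower in Ts65Dn than in euploid (median -1.01), led by the NMDA receptor subunit gene Grin1 (-1.56, SE 0.38) and the AMPA receptor subunit gene Gria2 (-1.44, SE 0.29). In the libraries labelled Ts65Dn;Brwd1+/- relative to Ts65Dn, 11 of the 16 were higher, led by Gria2 (1.41, SE 0.29) and Grin2b (1.24, SE 0.36), and the calcium channel gene Cacna1d was lower (-0.44), as it was against euploid (-0.48). Of 16 upstream factors and coactivators, 8 were lower in Ts65Dn, led by Neurod2 (-1.35) and Mef2c (-1.35), which are expressed mainly in neurons, and 2 higher, Elk4 (0.42) and Arnt (0.25). Relative to Ts65Dn, in the libraries labelled Ts65Dn;Brwd1+/- 8 of the 16 were higher and 2 lower, and these 4 had the opposite directions (Neurod2 1.28, Mef2c 1.18, Elk4 -0.35 and Arnt -0.40). Against euploid, Elk1 was called higher (0.33).

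Among 10 tested genes of BDNF receptors and processing, 6 were lower and 3 higher in Ts65Dn than in euploid. The low-affinity neurotrophin receptor gene Ngfr (-1.14, SE 0.22) and Ntrk3 (-0.92, SE 0.18) were lower, and the BDNF receptor gene Ntrk2 (0.33, SE 0.11) was higher. In the libraries labelled Ts65Dn;Brwd1+/- relative to Ts65Dn, Ntrk2 (-0.54, SE 0.11) was lower along with Bdnf itself, and Ngfr (0.97) and Sorcs2 (0.55) higher. Against euploid, 3 of the 10 were lower, among them Ntf3 (-0.83).

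Without Ts65Dn replicate 3, a setting chosen for these lists after the values were seen, 20.9% of all tested genes were higher and 17.3% lower in Ts65Dn than in euploid. The channels, receptors and kinases again gave 12 of 16 lower, with a median of -0.69 in place of -1.01, Grin1 at -1.18 and Gria2 at -1.13. The neuronal activity effectors gave 8 of 18 lower and 2 higher, with a median of -0.25 in place of -0.62 and Nrgn at -1.35. The genes of BDNF receptors and processing gave 3 of 11 lower and 1 higher, in place of 6 and 3 of 10, and Ntrk2 and, among the upstream factors, Arnt were no longer called higher. The ERK feedback inhibitors gave 4 of 12 higher and 2 lower, with Dusp4 at -0.575 in place of -0.8683.

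Between Ts65Dn;Brwd1+/- and Ts65Dn without that library, 24.3% of all tested genes were higher and 27.3% lower. The neuronal activity effectors gave 8 of 18 higher and 5 lower, in place of 8 and 2 of 17, with a median of 0.10 in place of 0.47 and Sorcs3 at 1.47. The channels, receptors and kinases gave 10 of 16 higher, with a median of 0.34 in place of 0.57. The other early transcription factors gave 6 higher and 2 lower in Ts65Dn against euploid, with Egr3 at -0.42 in place of -0.70, and the other early response genes 8 and 2. Of the neuron markers, 10 of 12 were again lower in Ts65Dn than in euploid (median -0.85).

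**Figure D4:**
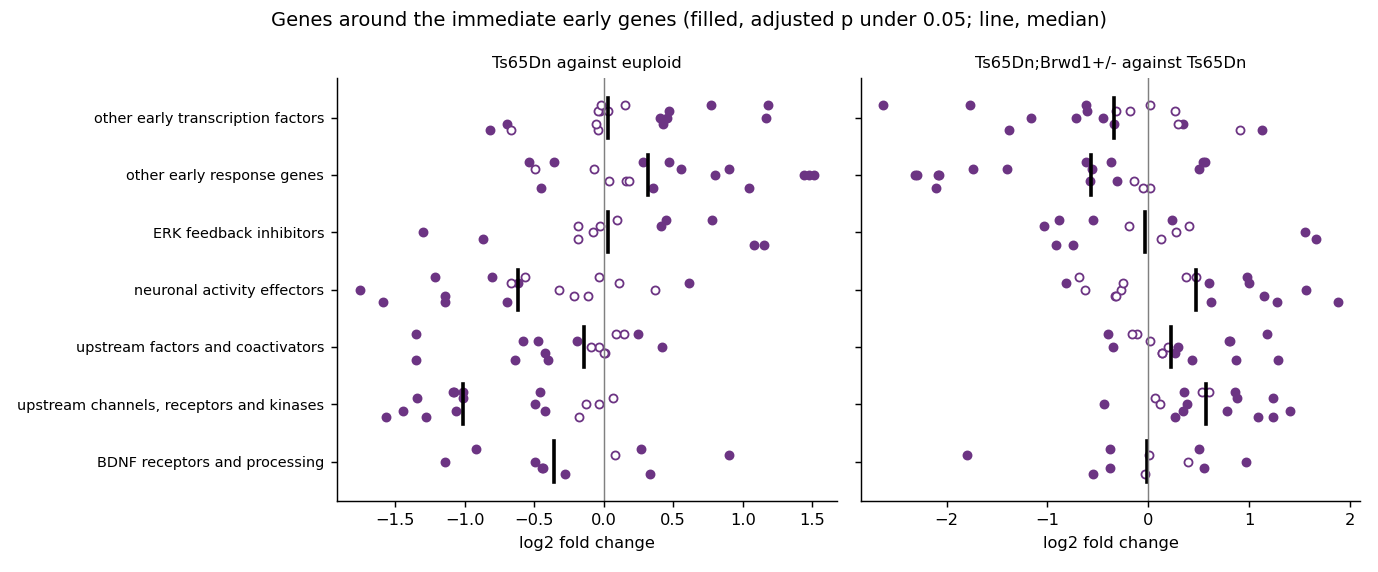
Each point is 1 tested gene of a list, with its log2 fold change on the horizontal axis for Ts65Dn against euploid (left) and Ts65Dn;Brwd1+/- against Ts65Dn (right); filled points have an adjusted p under 0.05 and black lines mark medians. The channels, receptors and kinases have a median of -1.01 on the left and 0.57 on the right, whereas the other early response genes have 0.32 and -0.57.

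The adult hippocampus was described through the deposited peaks that name a member. In the euploid SMARCA2/4 list of 22667 peaks, 9 of the 10 members were named by 27 peaks, all but Egr2, where 38.6% of the genes tested in culture were named by at least 1 peak. Junb was named by 10 peaks, Egr1 by 4, Arc by 3, Fos, Nr4a1, Npas4 and Bdnf by 2 each, and Fosb and Ier2 by 1 each. Of the 27, 23 had a q-value under 0.05, and the centres of 10 lay upstream of the gene, 10 in an exon and 7 in an intron. The strongest was at Egr1, with a fold enrichment over input of 5.22 at 444 bases from the nearest annotated start, above 97.2% of the list. Arc followed with 4.46 at 559 bases upstream and Fos with 4.27 at 471 bases upstream, whereas the single peaks at Fosb and Ier2, at 3.24, exceeded only 19.2% of the list.

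No peak of the Ts65Dn SMARCA2/4 list named a member, where 4.14% of the tested genes were named, and the list held 1290 peaks. The list of Ts65Dn;Brwd1+/- held 1873 peaks and named 2 members, Egr1 (fold enrichment 4.50, q = 0.00466) and Arc (3.66, q = 0.0895), where 4.89% of the tested genes were named. The Egr1 peak shared no base with a euploid peak of that gene, and the Arc peak shared 11 of its 50 bases with one. The euploid list was more than 10 times as long as either of the others over all genes, and the members' counts stand beside that. Within 5 kb of any annotated start, whatever gene a peak names, 1 member had a peak in the Ts65Dn list, Npas4, by a peak that names no gene (q = 0.293).

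Open chromatin in neuronal nuclei was found at nearly all members in each genotype. The euploid ATAC-seq list of 15521 peaks named 9 members (53.3% of tested genes were named), the Ts65Dn list of 29195 peaks 9 (66.0%) and the Ts65Dn;Brwd1+/- list of 30244 peaks 10 (65.6%). The exception was Ier2, named only in the last list by a peak at 2.87-fold enrichment whose centre lay 3 bases from the start, and in the other lists a peak within 5 kb of that start named the neighbour Gm26664. The peaks over the promoter windows printed above covered 198, 300 and 300 of the 300 bases of Fos in euploid, Ts65Dn and Ts65Dn;Brwd1+/-, 265, 267 and 300 of Junb, 266, 276 and 267 of Egr2, and all 300 of Nr4a1 and Npas4 in each.

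For the 5 members that 1 ATAC-seq peak named in each list, the fold enrichment was set side by side. Fos gave 3.10, 4.26 and 3.77 in euploid, Ts65Dn and Ts65Dn;Brwd1+/-, Nr4a1 3.47, 5.66 and 3.93, Arc 3.17, 3.85 and 3.47, Egr2 3.08, 3.30 and 2.89, and Npas4 2.75, 3.82 and 2.79. The Ts65Dn value was the highest for each of these 5 genes, and the median over all peaks was also highest in that list, at 4.02, 4.19 and 3.61 in the same order. Bdnf was named by 4, 5 and 5 peaks, the strongest at 3.78, 4.71 and 4.78, so that there Ts65Dn;Brwd1+/- was highest. Fosb was named by 2 in each list, the strongest at 3.67, 5.72 and 3.67, in an exon. Egr1 was also named by 2 in each list, the strongest at 3.86, 4.27 and 3.84. Junb was named by 3, 4 and 3 peaks, the strongest at 3.06, 3.29 and 3.24. No replicate error stands behind these values, so differences between lists were not tested.

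**Figure D5:**
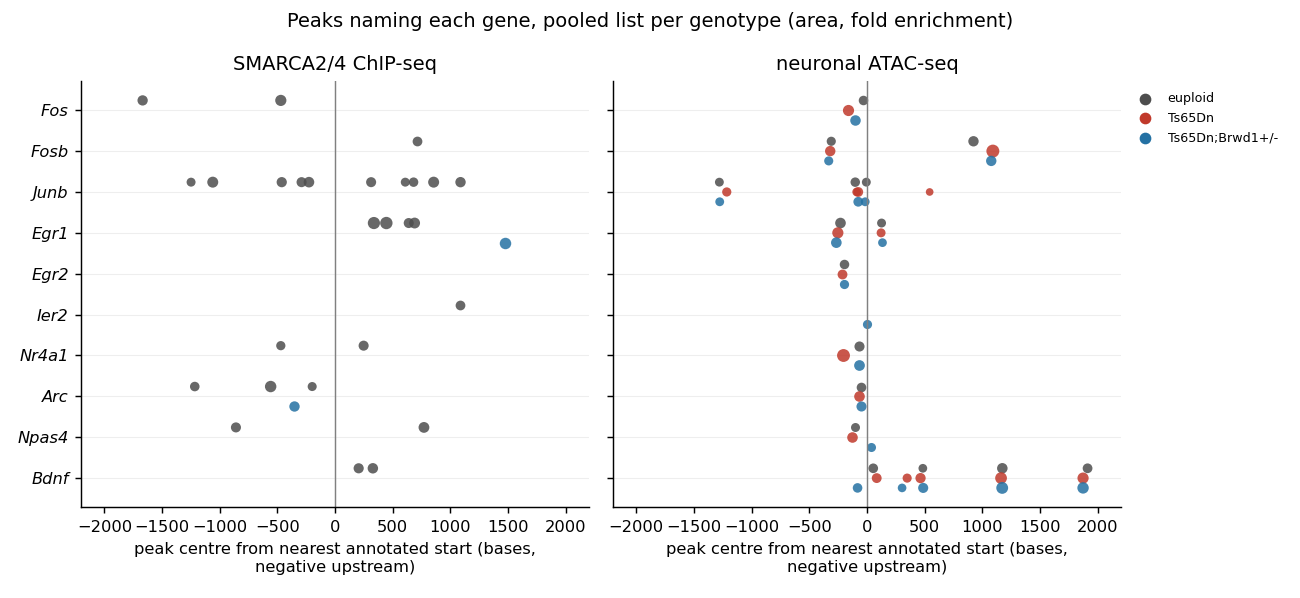
Each point is a peak that names the gene on the vertical axis, at the distance of its centre from the nearest annotated start in bases (negative upstream), with area in proportion to fold enrichment and color for the genotype of the pooled list; the left panel shows SMARCA2/4 ChIP-seq and the right panel neuronal ATAC-seq. On the left nearly all points are euploid, 27 beside 2 of Ts65Dn;Brwd1+/-, whereas on the right all genotypes have points at each gene but Ier2.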

How the data were processed

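RNA sequencing of 9 cultures, 3 per genotype, was analysed with 6 peak lists of adult hippocampus. Per the study's methods, the authors aligned the RNA reads with HISAT2 to mm10 and counted them per Ensembl v90 gene, and raw counts were deposited. The methods name featureCounts, whereas the files end in total lines of the htseq-count kind, which held 37.4 to 40.0% of counts, name no gene and were left out. The peaks were called by the authors with MACS2, 1 pooled list per genotype and assay, and deposited with fold enrichment (over input for ChIP-seq) and q-value. Sequenced depth of the peak lists was not used here. Columns with no matching sample were not found.

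Counts were filtered (filterByExpr), scaled by TMM and tested in 1 fit of all 9 libraries with edgeR 4.0.16 in R 4.3.3 (quasi-likelihood F-test, Benjamini-Hochberg adjustment over 17173 genes, threshold 0.05); the biological coefficient of variation was 0.12. CPM are TMM-scaled. The code was tested on simulated data. The number of libraries and their depth of 17270070 to 25892802 counts set the precision, and counting intervals were not needed. DESeq2 1.42.0, 2 other scalings, 2 other filters, pairwise fits, a residual factor, the replicate number as a block and leaving out each library were alternatives. Gene lengths came from merged GENCODE exons, promoter windows from RefSeq (GRCm38.p6), and all 238 list genes matched by symbol.

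Members and lists were chosen with earlier results of these data known. Named were all members, the 2 called genes with the largest change per direction in each list and comparison, the 5 genes most correlated with Fos, Npas4 and Bdnf, Brwd1, and defining markers; 1 gene that this rule names is not reported here. Xist, the ratios to neuron markers and the list counts without Ts65Dn replicate 3 were added after values were seen.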

Additional observations from a re-analysis of the deposited data

How the results depend on the processing

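Of 510 member log2 fold changes over 17 alternatives, 469 kept their direction and side of the threshold, 29 lost their call, 10 gained one and 2 changed sign. In 22 of 30 pairs of member and comparison the call was the same in all 17. The 2 sign changes were of Arc in the libraries labelled Ts65Dn;Brwd1+/- relative to Ts65Dn, not called in any fit, at -0.0637 without Ts65Dn replicate 3 and -0.0131 without replicate 1 of the former; over all fits that left out 1 library it lay between -0.0637 and 0.1901. Leaving out single libraries gave 5 to 6 called members in Ts65Dn against euploid, 6 to 8 in Ts65Dn;Brwd1+/- against Ts65Dn and 3 to 7 in Ts65Dn;Brwd1+/- against euploid, where fewer libraries entered the fit.

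The gap between members induced in all cells and neuron-selective members differed by -0.81 between Ts65Dn;Brwd1+/- and Ts65Dn, and by -1.20 with Bdnf left out. Between Ts65Dn;Brwd1+/- and euploid it was 0.47, and it was 0.61 without Fos, 0.17 without Egr1, 0.32 without Ier2, 0.80 without Junb, 0.0275 without Bdnf and 0.89 without Arc. Counting any SMARCA2/4 peak within 5 kb gave 1 member in Ts65Dn in place of 0, and peaks with q under 0.05 and fold over 1.2 left 1 member in Ts65Dn;Brwd1+/- in place of 2.

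The labels do not say what a replicate number stands for. Deviations of same-numbered libraries from the genotype means correlated between -0.162 and 0.279, over 0.1 in 6 of 9 pairs, among them all 3 of euploid and Ts65Dn (0.129, 0.207 and 0.263), so pairing was not settled and the block was kept as an alternative. With the replicate block, 8349, 10268 and 5397 genes were called in the 3 comparisons in the order above and 11200 over the 3 genotypes, in place of 8017, 9980, 5008 and 10950. Members called were 6, 6, 7 and 8, the 6 in Ts65Dn against euploid being the same genes as without it, and the call of Ier2 between Ts65Dn;Brwd1+/- and Ts65Dn was lost.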
